A study of Mus musculus with 4 samples.

Results

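Integrins are the receptors by which T cells grip vessel walls, matrix and one another, and 8 of their subunit genes were followed here through T cells of the brain borders. The genes were Itgae, Itga1, Itga4, Itgal and Itgav, which encode α chains, and Itgb1, Itgb2 and Itgb7, which encode β chains. They were chosen by name, as integrin subunits used by T cells, with earlier results of these data known. All 8 were found among the 31053 genes of the count tables. Single-cell RNA-seq of the 5′ ends of transcripts had been run on CD4 and CD8 T cells that were sorted from meninges or from choroid plexus (CP). The mice were female C57BL/6, either young (10 weeks) or aged (18 months). Each of the 4 libraries pooled 5 mice, so there was 1 library per condition and no test across mice.

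A working integrin is a pair of 1 α and 1 β chain, and the pair decides the ligand. On T cells, Itgal with Itgb2 forms LFA-1, which binds ICAM molecules on endothelium and on antigen-presenting cells. Itga4 pairs with Itgb1 to form VLA-4, a receptor for VCAM-1 and fibronectin, or with Itgb7 to form a receptor for the gut addressin MAdCAM-1. Itga1 with Itgb1 binds collagen, and Itgae, which encodes CD103, pairs with Itgb7 to bind E-cadherin on epithelium, both being well known on T cells that stay in tissues. Itgav pairs with several β chains, Itgb1 among them, and some of these pairs release active TGF-β from its latent form.

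Unique molecular identifiers (UMIs, each standing for 1 captured transcript) were summed over the cells of a class in a library and scaled to a total of 1000000 UMIs over all genes (counts per that total, CPM). T cells were called CD4 (254, 160, 362 and 230 cells), CD8 (254, 160, 281 and 473 cells) or neither (481, 269, 735 and 358 cells) from UMIs of Cd4, Cd8a and Cd8b1, in the order young meninges, young CP, aged meninges and aged CP. This order holds for every run of 4 values below. Cells called neither can be CD4 or CD8 T cells in which none of these transcripts was captured. A median of 2079 to 3645 UMIs was counted per cell, lowest in the aged meninges. Intervals are exact 95% intervals that cover counting error only, not differences between mice or preparations. A sum cannot tell fewer expressing cells from less RNA per cell. In place of a test, a gene was called changed by size alone: 20 UMIs or more over both groups and a log2 ratio of 1 or more, up or down, after 10 CPM were added to both values. "Rose" and "fell" are used of what passed this rule.

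Every cell held a CD3 transcript, since T cells were called by it, and no neutrophil marker was found in any class. Genes of B cells had a UMI in 14.6 to 51.2% of the cells of a class, macrophage genes in up to 1.93%, fibroblast genes in up to 0.423%, CP epithelial genes in up to 3.38%, and endothelial genes in 3.4 to 20.6%. Of the endothelial genes, Cdh5 and Cldn5 had no UMI in any class and library. Flt1 had UMIs in aged meningeal CD4 T cells only, so elsewhere the endothelial share was that of Pecam1 alone. In young meningeal CD4 and CD8 T cells the B cell share came from Cd79b and Ighm, with Cd79a and Ms4a1 at 0. Erythroid genes reached 23.5% of cells in aged meningeal CD8 T cells. Libraries shared 0 to 3 cell barcodes per pair. Doublet scoring marked 0 cells in the aged meninges, so doublets can remain there.

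On GRCm38 the α chain genes lie at chr11:73090583-73147446 (Itgae), chr13:114953096-115101964 (Itga1), chr2:79255426-79333123 (Itga4), chr7:127296260-127335138 (Itgal) and chr2:83724397-83806916 (Itgav). The β chain genes lie at chr8:128685654-128733200 (Itgb1), chr10:77530252-77565708 (Itgb2) and chr15:102215995-102231944 (Itgb7). Itga1 and Itgb7 are on the minus strand and the others on the plus strand.

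Both chains of VLA-4 were higher in the aged than in the young libraries. Itga4 was measured at 184, 181, 297 and 323 CPM in CD4 T cells, 159, 173, 202 and 254 CPM in CD8 T cells, and 121, 161, 238 and 258 CPM in cells called neither. Its partner Itgb1 stood at 351, 332, 568 and 611 CPM in CD4 T cells, 184, 350, 351 and 575 CPM in CD8 T cells, and 200, 247, 448 and 425 CPM in cells called neither. The aged value was the higher one in each of the 3 classes and in both tissues. For Itgb1 the ratio of aged to young CPM ran from 1.62 (interval 1.41 to 1.86, meningeal CD4) to 2.24 (1.96 to 2.56, meningeal cells called neither), and for Itga4 from 1.27 (1.03 to 1.58, meningeal CD8) to 1.97 (1.65 to 2.36, meningeal cells called neither). Of these 12 ratios only that of Itgb1 in meningeal cells called neither passed the rule, with a log2 ratio of 1.12. It became 0.97 when cells with macrophage, fibroblast, endothelial or epithelial transcripts were left out. That filter took out mostly young cells with the endothelial gene Pecam1. Endothelial transcripts, all of Pecam1, were in 96 of 481 young and 25 of 735 aged cells, and macrophage transcripts in 2 and 6.

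**Figure D1:**
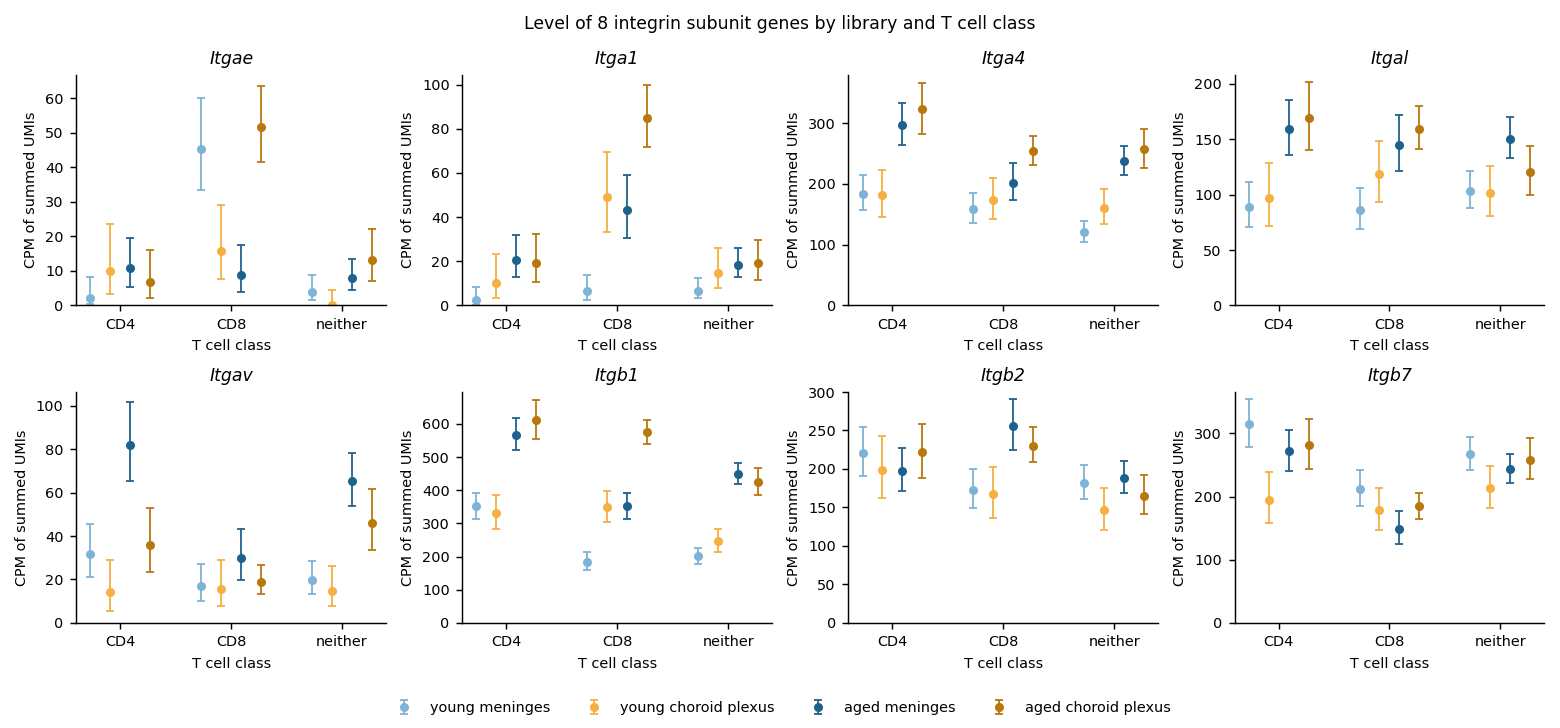
CPM of the 8 integrin genes (vertical axes, each from 0) in CD4, CD8 and other T cells of the 4 libraries (colours). Points are single libraries and bars exact 95% Poisson intervals. Itga4 and Itgb1 lie higher in the aged libraries in each class, while Itgae is high only in CD8 T cells of young meninges and aged CP.

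Over the 12 combinations of library and class, Itga4 and Itgb1 had a Pearson correlation of 0.93 on the log2 scale, the highest of the 28 pairs of members; the 12 points come from only 4 libraries, so this is a description. The 200 bases before the annotated start of each gene are shown because these partner subunits had the most alike levels. They come from RefSeq promoter entries on GRCm38.p6, with matches in capitals to GGGCGG (Sp1 box), TGTGGT (RUNX), CCGGAAG (ETS) and CCACCC (KLF), searched on both strands.
Itga4, chr2:79255226-79255425, plus strand: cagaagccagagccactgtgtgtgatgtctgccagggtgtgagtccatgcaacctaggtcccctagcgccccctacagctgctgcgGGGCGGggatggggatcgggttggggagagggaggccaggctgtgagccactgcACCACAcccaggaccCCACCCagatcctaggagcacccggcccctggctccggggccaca
Itgb1, chr8:128685454-128685653, plus strand: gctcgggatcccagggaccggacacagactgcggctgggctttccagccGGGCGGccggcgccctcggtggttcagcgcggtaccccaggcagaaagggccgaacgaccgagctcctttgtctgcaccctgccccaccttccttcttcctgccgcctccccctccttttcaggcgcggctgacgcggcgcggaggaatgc
The Sp1 box was found once in each window, and 31.0% of 32851 promoter windows of this length held it. The RUNX letters (11.2% of windows) and the KLF letters (24.1%) were found once in Itga4, RUNX on the minus strand, and not in Itgb1. The ETS letters (6.29%) were in neither window, and no match overlapped another. Itga4 shares 1124 exonic bases with Cerkl on the opposite strand, and whether counting used the strand is not given in the sources used here.

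In single cells Itgb1 was detected more often in cells with an Itga4 UMI than in cells without one. Each cell was thinned to 1000 UMIs, since detection depends on depth. In CD8 T cells Itgb1 was then detected in 17.5, 41.2, 34.0 and 42.6% of cells with an Itga4 UMI, against 9.81, 19.3, 27.6 and 35.5% of cells without one. In CD4 T cells the shares were 29.7, 24.1, 49.4 and 52.6% against 14.4, 13.1, 36.7 and 36.6%. The share was higher beside Itga4 in 4 of 4 libraries of each class, but the intervals of single libraries overlapped in all but 1 of the 12. Itgb7, the other partner of Itga4, was higher beside it in only 2 of 4 libraries in CD4 T cells and 3 of 4 in CD8 T cells, with differences of -7.47 to 7.21 percentage points. Crossed pairs, which form no heterodimer, were counted too, in the order CD4, CD8 and neither. Itgb7 was higher beside Itga1 in 0, 1 and 4 of 4 libraries, with few Itga1-positive cells. Beside Itgae, Itgb1 was higher in 1 of 3, 0 of 4 and 0 of 2 libraries, and Itgb2 in 1 of 3, 1 of 4 and 1 of 2.

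The balance between the β chains open to Itga4 differed between the ages. Itgb7 was measured at 315, 195, 272 and 281 CPM in CD4 T cells, 212, 178, 149 and 184 CPM in CD8 T cells, and 267, 213, 244 and 259 CPM in cells called neither, with no comparison of ages or tissues passing the rule. Per Itgb7 UMI, CD4 T cells had 1.11, 1.70, 2.09 and 2.17 Itgb1 UMIs. The same ratio was 0.871, 1.96, 2.36 and 3.12 among CD8 T cells, and 0.751, 1.16, 1.84 and 1.64 among cells called neither. Young meninges had the lowest ratio in every class, at most 1.31 at the upper end of its interval, and the intervals of the aged meninges lay above it in all 3 classes. In the CP the intervals of young and aged overlapped in CD4 T cells and in cells called neither, and stood apart in CD8 T cells (1.56 to 2.49 young, 2.75 to 3.55 aged).

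**Figure D2:**
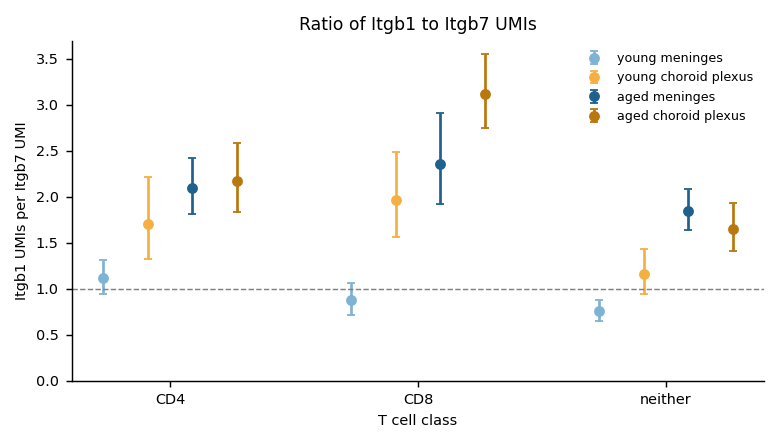
Itgb1 UMIs per Itgb7 UMI (vertical axis, from 0) in each T cell class and library, with exact 95% intervals for counting error and a dashed line at a ratio of 1. Young meninges lies lowest in each class, from 0.751 to 1.11, and aged CP CD8 T cells highest, at 3.12.

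The age difference of Itgb1 was not alike in all cells of a class. Ccr7, the lymph-node homing receptor of naïve and central memory T cells, split the cells into those with and without a Ccr7 UMI. A cell without a UMI can still express the gene. In young mice, Itgb1 stood at 161 CPM in meningeal CD4 T cells with a Ccr7 UMI and at 598 CPM in those without, and at 139 and 676 CPM in the CP. In young CD8 T cells the values were 112 and 321 CPM in the meninges and 106 and 583 CPM in the CP. Among cells without a Ccr7 UMI the aged levels were close to the young ones, at 560 and 599 CPM in CD4 T cells and 344 and 612 CPM in CD8 T cells of the meninges and the CP, and the 4 log2 ratios lay between -0.17 and 0.10. Over all cells the same 4 ratios had been 0.68 to 0.89.

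Cells with a Ccr7 UMI differed in the other way. Their Itgb1 level was 639 and 691 CPM in aged CD4 T cells and 397 and 333 CPM in aged CD8 T cells of the meninges and the CP, which gave log2 ratios of 1.56 to 2.24 over the young cells. These aged sets were small, with 25 to 45 cells, against 76 to 164 young cells. They were also a smaller part of their class: 35 of 362 aged meningeal CD4 T cells had a Ccr7 UMI, against 146 of 254 young ones. In CD4 T cells without a Ccr7 UMI, Itga4 went from 219 to 301 CPM (meninges) and from 246 to 336 CPM (CP). The log2 ratios were 0.45 and 0.44, and 0.70 and 0.66 in CD4 T cells with one. In CD8 T cells without a Ccr7 UMI the log2 ratios of Itga4 were 0.26 (meninges) and 0.61 (CP). In those with one they were -0.50 and -0.13. The young and aged intervals of Itga4 overlapped in all these sets except CP CD8 T cells without a Ccr7 UMI.

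**Figure D3:**
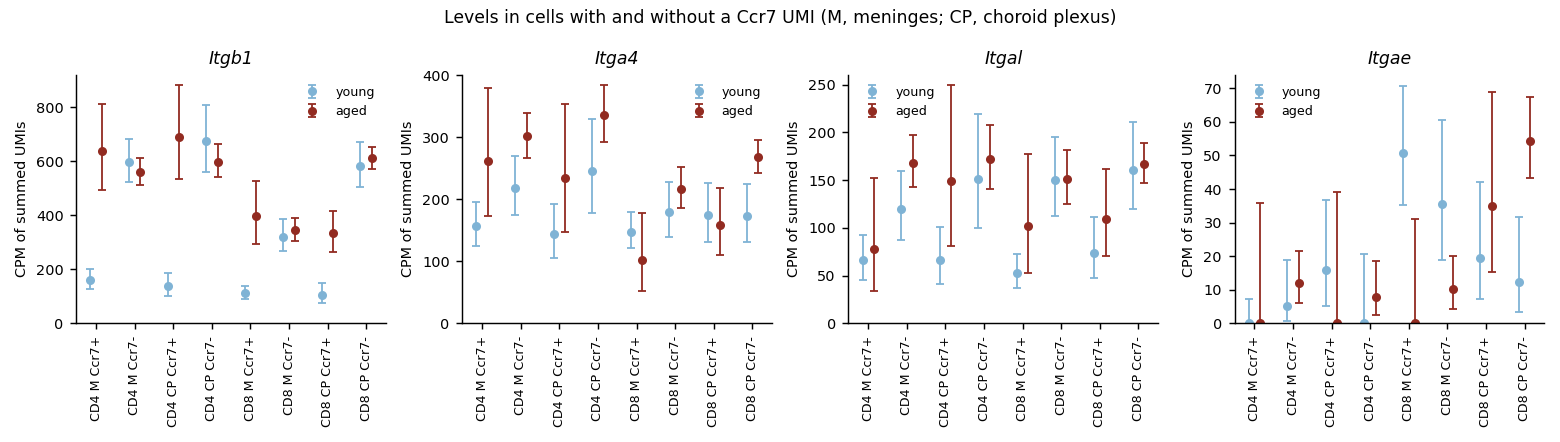
CPM of Itgb1, Itga4, Itgal and Itgae (vertical axes, each from 0) in CD4 and CD8 T cells with (Ccr7+) or without (Ccr7-) a Ccr7 UMI, for young (blue) and aged (red) libraries of meninges (M) and CP, with exact 95% Poisson intervals. Itgb1 is alike between ages in the cells without a Ccr7 UMI and higher in the aged cells with one.

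Other state genes sorted Itgb1 in the same libraries. Among CD8 T cells, those with a UMI of Gzmk, which encodes a granzyme of effector memory cells, had 700, 864, 398 and 666 CPM of Itgb1, against 81.7, 228, 286 and 470 CPM in the rest. Cells with a UMI of Cxcr6, a chemokine receptor of tissue-resident T cells, had 376, 598, 409 and 610 CPM against 99.6, 128, 283 and 498 CPM. Both differences went the same way in 4 of 4 libraries with intervals apart, and both were smaller in the aged libraries. Itga4 was also higher in Gzmk-positive CD8 T cells in 4 of 4 libraries (log2 ratios 0.48 to 0.70, intervals apart in 2), whereas Itgb7 was lower in aged Gzmk-positive cells, at 115 against 198 CPM in the meninges and 141 against 235 CPM in the CP.

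In CD4 T cells the state genes sorted Itgb1 less evenly. Cxcr6-positive cells had more of it in the young meninges (710 against 248 CPM) and the young CP (787 against 233 CPM). In the aged CP they had less, 348 against 785 CPM, with intervals apart, and in the aged meninges the intervals overlapped. Cells with a UMI of Foxp3, the transcription factor of regulatory T cells, could be described only in the aged libraries, with 44 and 20 cells. They had less Itgb1 than other CD4 T cells, at 370 against 615 CPM in the meninges and 411 against 644 CPM in the CP. Among cells called neither, the 24 aged meningeal cells with transcripts of the gamma-delta receptor constant genes had 82.8 CPM of Itgb1 against 464 CPM in the rest, and 82.8 against 245 CPM of Itga4.

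**Figure D4:**
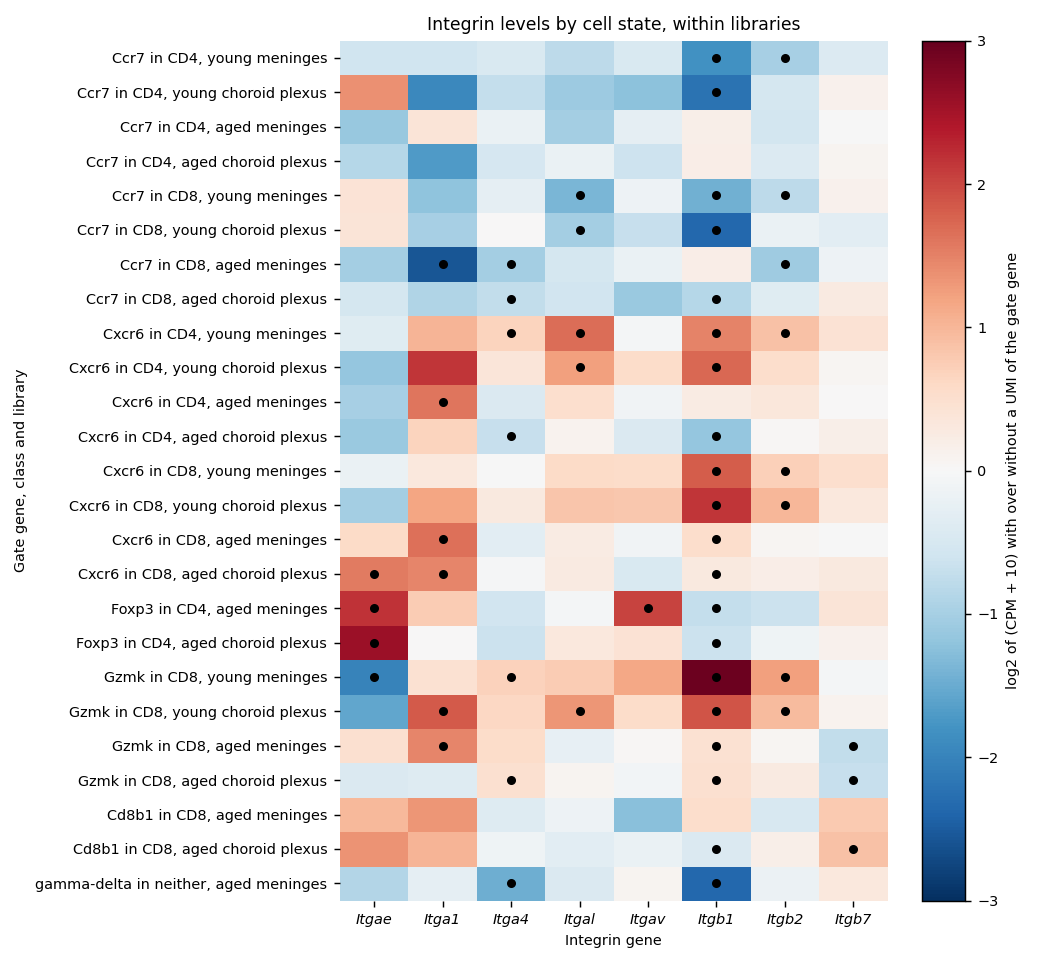
Log2 ratio of (CPM + 10) in cells with over cells without a UMI of a state gene (colour, red higher with it), for each integrin gene (columns) and each state gene, class and library with at least 20 cells on each side (rows). Black dots mark exact 95% Poisson intervals that do not overlap, as for Itgb1 in each row of Gzmk and of Cxcr6 in CD8.

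Itgae and Itga1 were the subunits that differed most between libraries, and mainly in CD8 T cells. Itgae stood at 45.4 CPM (33.5 to 60.2) in CD8 T cells of young meninges, 15.8 (7.56 to 29.0) in young CP, 8.84 (3.82 to 17.4) in aged meninges and 51.9 (41.7 to 63.7) in aged CP. Thus the meninges were high in young and low in aged mice, and the CP the reverse. With age Itgae fell in the meninges (log2 ratio -1.56, from 48 UMIs to 8) and rose in the CP (1.26, from 10 UMIs to 90). In CP over meninges it was lower in the young libraries (-1.11) and higher in the aged (1.72). In CD4 T cells it stood at 2.26, 10.1, 10.9 and 6.93 CPM, and in cells called neither at 3.98, 0, 8.08 and 13.0 CPM; for the value of 0, 3 UMIs would have been 3.72 CPM.

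Before thinning, an Itgae UMI was found in 14.2, 6.25, 1.78 and 13.7% of CD8 T cells at median depths of 3645, 3437.5, 2811 and 3121 UMIs, and in 0.394, 1.25, 2.49 and 1.74% of CD4 T cells, at 3215, 2857, 2329 and 2624 UMIs. At 1000 UMIs per cell the shares were 3.94, 1.27, 1.46 and 5.79% of CD8 T cells and 0, 0.629, 0.281 and 0.437% of CD4 T cells. After this thinning the young and aged intervals of CD8 T cells overlapped in both tissues. They were 1.90 to 7.12% (young) and 0.399 to 3.70% (aged) in the meninges. In the CP they were 0.155 to 4.53% (young) and 3.85 to 8.32% (aged). In aged meninges the intervals of both classes overlapped before and after thinning. The fall in the meninges was present both in CD8 T cells without a Ccr7 UMI (35.4 to 10.2 CPM) and in those with one. Among those with one, 164 young cells stood at 50.8 CPM and 25 aged cells held no Itgae UMI (3 UMIs would be 25.4 CPM). The young intervals with and without a Ccr7 UMI overlapped (35.4 to 70.6 and 18.8 to 60.5 CPM). An Itgae UMI alone thus does not name a resident cell. In young meninges, Itgae was low in Gzmk-positive cells, at 5.69 against 53.3 CPM in the rest, while the intervals overlapped in the other libraries. Very few of the 48 Itgae UMIs there lay in the Gzmk-positive cells. With Cxcr6 the gene had no common direction: Cxcr6-positive cells had 40.1, 6.68, 12.2 and 68.0 CPM against 47.8, 23.9, 4.83 and 16.5 CPM in the rest. The intervals stood apart in the aged CP alone. In young CP and aged meninges these values split only 10 and 8 Itgae UMIs.

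Transcripts listed as markers of other cell types also differed between these CD8 T cell sets, though such a UMI alone does not name the cell. Their part in the Itgae values was not tested beyond leaving out some of the cells that carried them. Erythroid genes had a UMI in 5.51, 0, 23.5 and 0.634% of CD8 T cells, and no alternative left these cells out. B cell genes had a UMI in 51.2, 43.8, 14.6 and 18.2% of CD8 T cells, with the defining gene Cd79a at 0 in all 4 libraries, and gamma-delta receptor genes in 3.94, 5.0, 18.9 and 32.8%. Without the cells that carried B cell transcripts the age ratios of Itgae were -1.37 and 1.07, and that of CP over meninges in young mice was -0.62, no longer past the rule. Without those that carried gamma-delta receptor or natural killer transcripts they were -1.64, 1.28 and -1.08.

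Itga1 stood in CD8 T cells at 6.62 CPM (2.66 to 13.6), 48.9 (33.2 to 69.3), 43.1 (30.6 to 58.9) and 84.7 (71.6 to 99.6). Young meninges was the low library and aged CP the high one, and the other two overlapped. The gene rose with age in meningeal CD8 T cells (log2 ratio 1.68, 7 to 39 UMIs) and was higher in CP than in meninges of young mice (1.82). In CD4 T cells it was rarer, at 2.26, 10.1, 20.7 and 19.4 CPM, and rose in the meninges (1.33, from 2 to 21 UMIs); after thinning to 1000 UMIs per cell that ratio was 0.40. Cells called neither had 6.64, 14.9, 18.5 and 19.0 CPM. Cxcr6-positive CD8 T cells had more Itga1 than the rest in 4 of 4 libraries, with intervals apart in the aged ones (67.2 against 14.5 CPM in the meninges, 108 against 33.1 CPM in the CP). Itga1 shares 685 of its 18599 exonic bases with Gm49395, a gene on the same strand, so some of its reads may not have been counted.

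UMIs of both genes were held by 0 of 254, 0 of 160, 2 of 281 and 32 of 473 CD8 T cells, unthinned. The zeros allow shares of up to 1.44 and 2.28% (exact Clopper-Pearson). With 36 Itgae-positive and 7 Itga1-positive cells in young meninges, and 10 and 22 in young CP, detection was too sparse for these counts to show whether the genes share cells. After thinning, both were held by 0 of 254, 0 of 157, 1 of 274 and 2 of 466 cells. Either gene was found in 16.9, 20, 11.03 and 30.4% of CD8 T cells without thinning. After thinning the shares were 4.33, 5.73, 5.84 and 13.1%. The aged meningeal share was thus below the young one without thinning and above it after thinning, with overlapping intervals in both cases. Without thinning, 36 of the 43 young meningeal cells with either gene held Itgae alone, while in aged meninges 26 of 31 held Itga1 alone. The partner of Itgae, Itgb7, was found in 58.3, 70.0, 60.0 and 56.9% of Itgae-positive CD8 T cells and in 47.2, 45.3, 33.7 and 38.7% of the others without thinning; after thinning it was higher beside Itgae in 1 of 4 libraries, with 2 to 27 Itgae-positive cells.

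In aged CD4 T cells the Itgae UMIs lay mostly in Foxp3-positive cells, which held 9 of 11 in the meninges and 5 of 5 in the CP. They had 46.2 CPM (21.1 to 87.8) in the aged meninges, against 2.44 (0.296 to 8.83) in other CD4 T cells. In the aged CP they had 49.0 CPM (15.9 to 114), against 0 UMIs in 210 other CD4 T cells, where 3 UMIs would have been 4.84 CPM. The same cells held more Itgav in the aged meninges, at 226 CPM (164 to 304) against 47.7 (33.9 to 65.2), and not distinguishably so in the aged CP (49.0 against 33.9 CPM, with overlapping intervals).

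Itgav itself stood at 31.6, 14.1, 82.0 and 36.0 CPM in CD4 T cells, 17.0, 15.8, 29.8 and 19.0 CPM in CD8 T cells, and 19.9, 14.9, 65.2 and 46.1 CPM in cells called neither. Its CPM was highest in the aged meninges in each of the 3 classes, but only in CD4 T cells with an interval apart from every other library. In CD8 T cells the interval overlapped all the others. After thinning, the share of CD8 T cells with an Itgav UMI was 2.36, 2.55, 1.46 and 1.93%, lowest in the aged meninges. In cells called neither the interval overlapped that of aged CP. Itgav rose with age in meningeal CD4 T cells (log2 ratio 1.14), and in meningeal (1.33) and CP (1.17) cells called neither. The gene did not pass the rule in CP CD4 T cells (0.93) or in CD8 T cells (0.56 and 0.17). Without cells that carried B cell transcripts the meningeal CD4 ratio was 0.72. Aged meningeal CD4 T cells without a Foxp3 UMI had 47.7 CPM, an interval that overlaps that of all young meningeal CD4 T cells (20.99 to 45.66).

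Of the LFA-1 chains, Itgal was measured at 89.1, 96.6, 159 and 169 CPM in CD4 T cells, 86.1, 118, 145 and 160 CPM in CD8 T cells, and 104, 102, 151 and 120 CPM in cells called neither. Each aged value was above the young one of its tissue, by ratios of 1.18 (0.886 to 1.59, CP cells called neither) to 1.78 (1.35 to 2.37, meningeal CD4), and none passed the rule. Itgb2 was the steadiest chain in CD4 T cells, at 221, 199, 198 and 222 CPM. In CD8 T cells it stood at 173, 167, 256 and 231 CPM, with ratios of aged to young of 1.48 (1.21 to 1.81) in the meninges and 1.38 (1.11 to 1.73) in the CP. Cells called neither had 182, 146, 189 and 165 CPM. Both chains were lower in Ccr7-positive cells in 4 of 4 libraries of CD4 and of CD8 T cells. The intervals stood apart in 0 (Itgal) and 1 (Itgb2) of 4 libraries in CD4 T cells, and in 2 of 4 for each chain in CD8 T cells. Cxcr6-positive cells had more of both in 4 of 4 libraries of each class, though the intervals overlapped in most. Their co-detection in single cells was not steady: beside Itgal, the share with Itgb2 was higher in 3, 2 and 3 of 4 libraries in the CD4, CD8 and neither classes after thinning.

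Of the 48 comparisons of aged with young (8 genes, 2 tissues and 3 classes), 8 passed the rule, 7 higher and 1 lower. In meningeal CD4 T cells 2 of 7 members with enough UMIs passed, against 5.08% of all genes tested there, and in CP CD4 T cells 0 of 6 (7.65% of all genes). In CD8 T cells 2 of 8 passed in the meninges (4.12% of all genes) and 1 of 8 in the CP (3.17%). In cells called neither, 2 of 8 passed in the meninges (4.23%) and 1 of 7 in the CP (5.29%). A member could fall out of these counts for few UMIs, as Itgae did in 3 of the 6 comparisons and Itga1 in 1. The median log2 ratio of all genes tested was 0.11 in the CP for CD4 and CD8 T cells, 0.10 for CP cells called neither and 0.04 to 0.05 in the meninges.

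**Figure D5:**
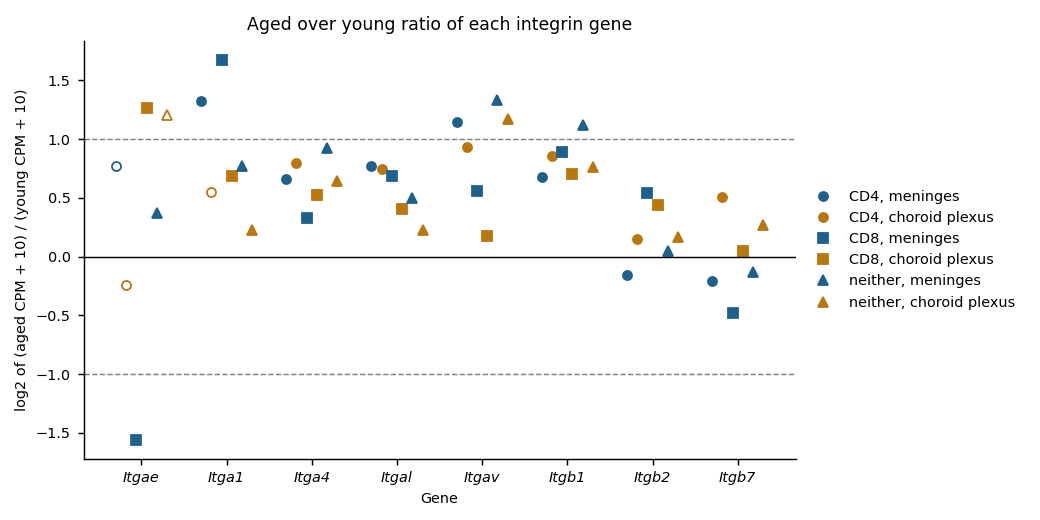
Log2 ratio of aged over young CPM, with 10 CPM added (vertical axis), for each integrin gene in CD4 (circles), CD8 (squares) and other (triangles) T cells of meninges (blue) and CP (brown). Dashed lines mark the rule of size at -1 and 1, open symbols have under 20 UMIs, and Itgae in CD8 T cells lies at -1.56 in the meninges and 1.26 in the CP.

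For CP over meninges, 3 of 48 comparisons passed, all in CD8 T cells. They were Itgae and Itga1 in young mice (2 of 8 members, against 2.31% of all genes) and Itgae in aged mice (1 of 8, against 1.25%). No member passed in CD4 T cells of young (3.21% of all genes) or aged mice (1.86%), nor in young (1.88%) or aged (1.33%) cells called neither.

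For CD8 over CD4 T cells of the same library, 5 of 32 comparisons passed. Itgae was higher in CD8 T cells of young meninges (log2 ratio 2.18, 1 of 7 members against 2.37% of all genes), and Itga1 in those of young CP (1.55, 1 of 6 against 3.08%). In aged CP both were higher in CD8 T cells (1.87 and 1.69, 2 of 8 against 3.15%), whereas in aged meninges Itgav was lower in them (-1.21, 1 of 7 against 3.73%). The median over all genes tested was -0.12 in young meninges and -0.13 in aged meninges.

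Genes that act with integrins were counted by list. Of 20 genes listed for integrin activation, some of which restrain it, 17 were tested in each of the 6 age comparisons. The genes that fell in any of them were Rasgrp2, Cytip and Cyth1. None rose, and 1, 2, 1, 1, 3 and 2 fell, in the order CD4, CD8 and neither with meninges before CP. Rasgrp2, which encodes the exchange factor that activates Rap1 for integrin activation, fell in all 6, from 113 to 190 CPM in the young to 37.5 to 69.3 CPM in the aged libraries. Of 20 adaptors and kinases at the integrin tail, 14 were tested, and Actn1, an α-actinin that links integrins to actin, fell in all 6, from 108 to 169 CPM down to 11.05 to 17.3 CPM (log2 ratios -2.99 to -2.21). Beside it only Fyn, in meningeal CD8 T cells, passed the rule. For comparison, 0.964 to 1.71% of all genes tested fell and 2.21 to 5.93% rose in these 6 comparisons. The median log2 ratio was -0.27 to 0.07 over the tested activation genes and -0.12 to 0.27 over the adaptors and kinases, against 0.04 to 0.11 over all genes.

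Of 20 ligands and counter-receptors only 4 or 5 were tested, since most are made by other cells; 1, 2, 0, 1, 2 and 2 rose and none fell. Spp1, which encodes the integrin ligand osteopontin, rose in CD4 T cells, from 0 UMIs to 65.2 CPM in the meninges and from 2.01 to 238 CPM in the CP. These UMIs lay in 13 and 10 cells, with up to 22 and 98 UMIs in a single cell. The paper, by contrast, states that its T cells did not express Spp1. Macrophage genes summed to up to 197 CPM in aged CD4 T cells, a CP value that came from 2 of 230 cells. Their part in the Spp1 values was not tested. In the list of the TGF-β pathway, 12 to 15 of 20 genes were tested, 1, 2, 1, 1, 2 and 2 rose and 0, 1, 0, 0, 1 and 0 fell. Bhlhe40, a transcription factor of resident and cytokine-producing T cells, rose in all 6 comparisons, from 12.1 to 40.5 CPM up to 53.0 to 175 CPM. Median log2 ratios were -0.16 to 0.83 over the ligands and -0.07 to 0.26 over the TGF-β list. Of 18 other integrin subunits only 1 or 2 had enough UMIs in any comparison, and Itga6, a laminin receptor chain, fell in cells called neither of both tissues.

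Among 3375 genes with at least 50 CPM in some combination of library and class, those whose 12 values ran most like a member's were named. Itgb1 was followed most closely by S100a4 (Pearson r = 0.95), Sf3b5 (0.93) and Stk39 (0.93), and Itga4 by Clic1 (0.95), Eea1 (0.94) and Sf3b5 (0.94). The nearest to Itgal was Ahnak (0.96), to Itgav Rap1a (0.96), to Itga1 Dmac1 (0.89), to Itgb7 Gm2a (0.93) and to Itgb2 Tapbp (0.84). The 12 points share 4 libraries and their depths, and the values only describe them.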

How the data were processed

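The authors sorted CD4 and CD8 T cells, prepared 5′ droplet libraries and counted UMIs with Cell Ranger (3.1.0 in the file headers, 5.1.0 in the submitters' processing notes). The deposited values are raw counts per gene and cell, with no normalization, on mm10. The limits of the study's methods were applied (200 to 7000 genes, at most 5% mitochondrial UMIs), which left 1035, 631, 1436 and 1106 of 1111, 718, 1695 and 1277 cells (meninges then choroid plexus of the young, then of the aged mice). Scrublet (scanpy 1.11.5), used in place of DoubletFinder, marked 16, 22, 0 and 5 doublets, which were removed. T cells had a UMI of Cd3d, Cd3e or Cd3g. A cell was CD4 when only Cd4 was detected, CD8 when Cd8a, Cd8b1 or both were detected without Cd4, and neither when all 3 genes were missing. The 18, 16, 30 and 33 cells with both kinds were left out. Counts were summed per class and library and scaled to CPM. Intervals were exact Poisson for sums and Clopper-Pearson for shares and ratios of counts. Reads counted as UMIs came from pooled mice, so no p-value was computed.

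The integrin genes, the lists, the state genes and the rule of size were chosen with earlier results of these data known. Genes named from a list passed the rule in the same direction in both tissues for CD4 or for CD8 T cells, and likeness named up to 3 genes per member (that of Itgae is not reported here); Fyn and Itga6 were named after their values were seen. Gene positions came from GENCODE vM21 (30934 of 31053 identifiers matched), and RefSeq promoter entries were found for 5 of 8 members. Alternatives covered pseudocounts, depth, scaling, cell filters and marker-bearing cells. The calculations used Python 3.11.15, numpy 2.4.6 and scipy 1.17.1. The rule was also run on simulated counts that held counting error only, with changes planted in well-counted genes. That run does not bear on differences between mice or preparations, nor on calls that rest on few UMIs.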

Additional observations from a re-analysis of the deposited data

Results flagged for a closer look

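Itgae went in opposite directions with age in CD8 T cells of the 2 tissues, with log2 ratios of aged over young of -1.56 (meninges) and 1.26 (choroid plexus). The same 4 values, read the other way, gave choroid plexus over meninges ratios of -1.11 in young and 1.72 in aged CD8 T cells. In the meninges the age ratio of Itgae was 0.77 in CD4 T cells, opposite to that of CD8 T cells, though it rested on 2 and 11 UMIs. Itgb2 was lower in CD8 than in CD4 T cells of young meninges (-0.34) and higher in those of aged meninges (0.36). With 1 library per group none of these differences was tested.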

How the results depend on the processing

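Of 128 log2 ratios, 16 passed the rule, and none of these changed sign under 14 alternatives. Those alternatives that changed only the pseudocount or the minimum of UMIs could not change a sign. Centring on the median of all genes could not change the sign of a ratio past the rule. Requiring a Cd8b1 UMI in CD8 T cells left ratios within the other classes as they were. Over all 128 ratios, 21 changed sign after thinning to 1000 UMIs. Without cells with B cell genes 17 did, and 10 did for the mean of the CPM of each cell. The count of members past the rule with age, 8, became 0 with a pseudocount of 50 CPM, 13 after thinning to 1000 UMIs and 13 for the mean of the CPM of each cell. The count between tissues, 3, became 6 with a pseudocount of 1 CPM and 0 with 50 CPM, and that between classes, 5, became 0 with 50 CPM. The larger pseudocount shrinks the ratios of low genes by construction; the cause of the other changes was not tested. No paired analysis was possible because each group had 1 library, and no library could be left out. Low counts, 0 to 32 UMIs per class and library, limit Itgae and Itga1 outside CD8 T cells most.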
